A study of Homo sapiens with 14 samples.

Results

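In DLD-1 cells that received a Tiam1 plasmid and the RAC inhibitor EHT 1864, 1693 genes had a BCL6 interval near their start, and 220 of these genes had no BCL6 interval in control cells. These 220 genes, called inhibitor-only genes here, were found by comparing the Ensembl gene identifiers of the inhibitor BCL6 list with those of the control BCL6 list. The other classes were 1473 genes with an interval in both lists and 36452 genes with one in the control list only, out of 44178 genes named in any of the 4 deposited lists that were used. DLD-1 is an established line of human colorectal adenocarcinoma.

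Control cells received an empty vector. Inhibitor cells received pEGFP-C1199Tiam1, which codes for an active form of Tiam1, the exchange factor that loads RAC1 with GTP, and were treated with 20 microM EHT 1864 for 16 hours, with chromatin taken 20 hours after transfection. Activator cells, used here for STAT5, received the same plasmid and vehicle. BCL6 was precipitated with antibody N-3 and STAT5 with antibody C-17, followed by sequencing (ChIP-seq). Inhibitor BCL6 came from libraries 6, 12 and 14, control BCL6 from libraries 2 and 8, control STAT5 from libraries 1 and 7, and activator STAT5 from libraries 3 and 9. The description of library 14 points to a list other than that of libraries 6 and 12, while its title, antibody and treatment are those of inhibitor BCL6, and it was used as such. Every inhibitor interval needed a score in it. The inhibitor and control cells differed in both plasmid and compound, which cannot be told apart here. The labels do not say that libraries of a group came from separate cultures. All groups rest on transient transfection, and in bulk chromatin more cells with an occupied site and more signal per cell cannot be told apart. Activator BCL6 and inhibitor STAT5 were not analysed here. None of the 14 libraries is labelled as an input library.

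BCL6 is a zinc finger repressor that recruits corepressors such as NCOR and BCOR, and it recognises DNA that overlaps with STAT5 sites of the form TTCNNNGAA. In colorectal cells RAC1 signals through the kinase PAK1, which is known to act on BCL6, and STAT5 activates genes that BCL6 can repress. BCL6 release from a gene and STAT5 arrival at it have been described as a switch.

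Each deposited interval has 1 whole number per library, called the score here because the table does not name the quantity, and the depth behind it is unknown. Scores were 0 or at least 2. Every inhibitor interval had a score of at least 2 in all 3 libraries, whereas a control interval needed a score in only 1 of its 2 libraries and was at least 250 bp wide. The window around a gene start ran from 3000 bp upstream to 1000 bp downstream. The absence of a control BCL6 interval therefore means that none was listed in that window. No inhibitor interval shared a base with a control BCL6 interval, and 236 of the 1652 directly adjoined one. A gene with both thus had the intervals at different bases. The classes therefore do not show BCL6 kept, lost or gained at a site. A control-only gene need not lack BCL6 in inhibitor cells.

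The sequences of the microRNAs among the inhibitor-only genes are shown first, because these are members whose product is a short sequence. MicroRNAs pair with messenger RNAs mainly through the seed, bases 2 to 8, which is in capitals below. The mature sequences are from RefSeq (GRCh38.p14).
hsa-miR-192-5p: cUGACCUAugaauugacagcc
hsa-miR-194-5p: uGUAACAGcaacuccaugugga
hsa-miR-760: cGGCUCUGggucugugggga
hsa-miR-1200: cUCCUGAGccauucugagccuc
The 4 seeds differ from one another. MIR192 and MIR194-2, neighbouring microRNA genes whose products are abundant in intestinal epithelium, were listed for the same interval at chr11:64660800-64660993 (GRCh37, minus strand genes). Its score was 2 in each of libraries 6, 12 and 14, the lowest score listed. It shared bases with a control STAT5 interval that scored 5 in library 1 and 0 in library 7. MIR760 had scores of 2, 3 and 2 at chr1:94311621-94311669, and MIR1200 scored 4, 2 and 3 at chr7:36961513-36961683. No inhibitor BCL6 score at these microRNA genes exceeded 4. MIR194-2 carries no symbol in the table and was matched by its deposited description.

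Promoters are shown for the inhibitor-only genes whose inhibitor BCL6 interval overlapped the bases of a RefSeq promoter, by its offset from the gene start. MRPL55 codes for a protein of the large subunit of the mitochondrial ribosome. Its interval at chr1:228297134-228297329 (GRCh37) lay 316 to 121 bp upstream of the start, scored 2 in each of the 3 inhibitor libraries and shared bases with a control STAT5 interval that scored 4 and 3. PLSCR2, of the phospholipid scramblase family, had an interval from 5 bp upstream to 18 bp downstream of its start at chr3:146213760-146213783 (GRCh37), with scores of 2, 2 and 3. The RefSeq promoters (GRCh38.p14, minus strand) run from 250 bp before a start to 50 bp after it, and RefSeq starts can differ from the Ensembl starts of the table. Capitals in MRPL55 (chr1:228109250-228109549) mark the bases at the offsets of the interval, whose upstream end lies beyond the bases shown. Capitals in PLSCR2 (chr3:146495942-146496241), whose second RefSeq start is shown because it holds the motif, mark TTCNNNGAA and not the interval.
MRPL55: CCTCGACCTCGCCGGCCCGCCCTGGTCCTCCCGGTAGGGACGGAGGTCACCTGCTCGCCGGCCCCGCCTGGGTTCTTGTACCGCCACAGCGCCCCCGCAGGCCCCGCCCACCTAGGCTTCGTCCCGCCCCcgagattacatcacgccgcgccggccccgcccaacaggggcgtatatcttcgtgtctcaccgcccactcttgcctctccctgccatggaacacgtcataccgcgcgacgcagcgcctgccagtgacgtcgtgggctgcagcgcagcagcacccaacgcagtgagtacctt
PLSCR2: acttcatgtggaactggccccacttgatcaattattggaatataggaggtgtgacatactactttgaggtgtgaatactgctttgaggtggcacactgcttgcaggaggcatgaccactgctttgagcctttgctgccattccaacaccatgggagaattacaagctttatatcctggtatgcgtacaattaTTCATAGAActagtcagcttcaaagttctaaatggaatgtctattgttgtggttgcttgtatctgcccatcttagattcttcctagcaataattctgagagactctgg
The PLSCR2 match lies 58 to 50 bp before that start, and the MRPL55 promoter holds no match. It lies outside the offsets of the PLSCR2 inhibitor interval, 5 bp upstream to 18 bp downstream. The promoter of the other PLSCR2 start holds no match. Over the 118 RefSeq promoters of 76 inhibitor-only genes, TTCNNNGAA, read on both strands, was found in 9 (7.63%, exact 95% interval 3.55 to 14.0), against 7.66% of all 35116 promoters of the same length. The motif TTCCTNGAA, whose matches are a subset of TTCNNNGAA, was in 3 promoters (2.54%, interval 0.527 to 7.25), those of AKIP1, CYP19A1 and LIFR, against 1.56% of all promoters. The shares of the inhibitor-only genes therefore lay close to those of all promoters. Most inhibitor intervals lay outside the promoter bases, and the sequences of the intervals themselves were not searched. The shares thus say nothing about motifs at the BCL6 intervals.

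The inhibitor-only class made up 13% of the genes with an inhibitor BCL6 interval (exact 95% interval 11.4 to 14.7, covering counting error only). This is near the background, since 14.2% of all 44178 genes had no control BCL6 interval, as did 12.5% of the activator STAT5 genes and 15.6% of the control STAT5 genes. Genes without a control BCL6 interval enter the 44178 only through another list. Inhibitor-only genes were 0.498% of all genes and 0.534% of protein-coding genes (92 of 17222). The class was larger whenever the control list was made stricter. With library 2 left out 498 inhibitor genes lacked a control interval, with library 8 left out 608 did, and when a control interval needed a score in both libraries 1360 did (80.3%). The control list itself then held 29001, 26752 and 6467 genes in that order, against 37925 as deposited. The share of all 44178 genes without a control interval thus rose too, so these values are no trait of the inhibitor genes. All 220 genes stayed in the class under these 3 settings by construction, since the settings only remove control intervals and the class cannot shrink. Requiring a score of at least 3 in every inhibitor library left 13 genes, 11.8% of the 110 that then had an inhibitor interval.

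**Figure D1:**
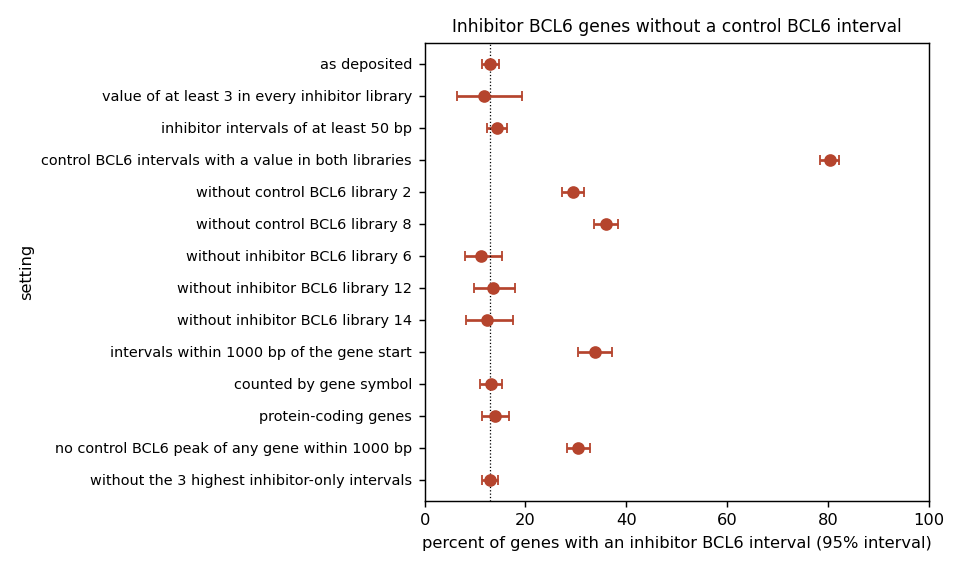
Percent of genes with an inhibitor BCL6 interval that had no control BCL6 interval (x axis) under each setting (y axis); points are the share, bars its exact 95% interval and the dotted line the share as deposited. The share lies at 13% as deposited and at 80.3% when a control interval needs a score in both libraries. The control list then holds 6467 genes, against 37925 as deposited, so the share over all genes rises too.

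Most inhibitor-only genes also had STAT5 listed near their start. A control STAT5 interval was present at 184 of 220 genes (83.6%, interval 78.1 to 88.3), against 90.8% (interval 89.2 to 92.3) of genes with both BCL6 lists, 84.4% of control-only genes and 86.1% of all genes. With a score in both control STAT5 libraries required, 30 inhibitor-only genes remained (13.6%), against 22.5% of genes with both and 15.2% of all genes. In activator cells 84 inhibitor-only genes had a STAT5 interval (38.2%, interval 31.7 to 45.0), which lay close to the 37.6% of genes with both and above the 28.8% of control-only genes and the 28.6% of all genes. That share was 22.9% when only intervals within 1000 bp of a start were counted in every list, and 15.4% (2 of 13 genes) with inhibitor scores of at least 3, below the full-window shares of the other classes; the other classes were not recomputed under these settings. These classes share control libraries through the rule that made them, and no test was made of the differences. By STAT5 pattern in the lists, 69 inhibitor-only genes had STAT5 in control and activator cells, 115 in control cells only, 15 in activator cells only, and 21 in neither. In that order these were 31.4%, 52.3%, 6.82% and 9.55% of the class, against 24.9%, 61.2%, 3.70% and 10.2% of all genes. At RARRES3, HOXC5, SPERT, TEF, LIFR and MIR760 an activator STAT5 interval directly adjoined a control STAT5 interval. No activator interval examined at the named genes shared a base with a control STAT5 interval of the same gene. Activator STAT5 on a control interval may thus go unlisted, and control cells only need not mean absence in activator cells.

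**Figure D2:**
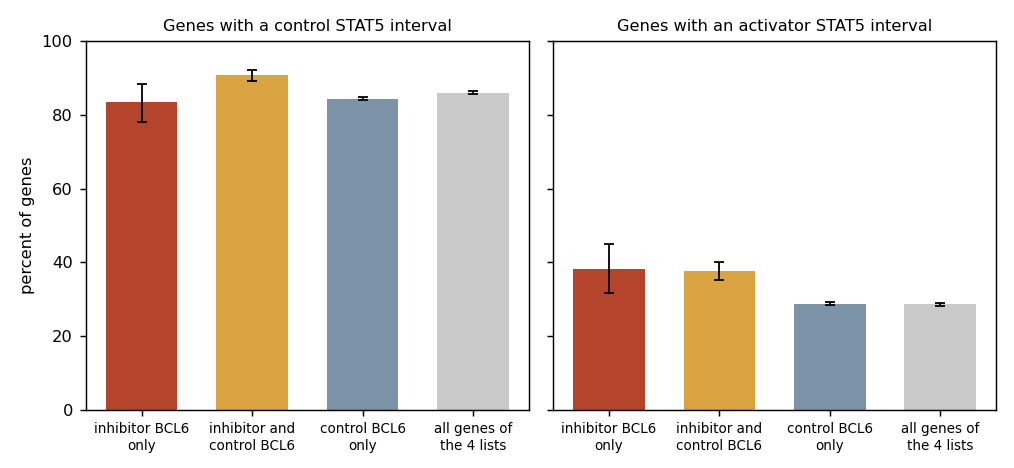
Percent of genes (y axis) with a control STAT5 interval (left) and an activator STAT5 interval (right), for the 3 BCL6 classes and all genes of the 4 lists; bars are shares and error bars exact 95% intervals. Inhibitor-only genes lie at 83.6% and 38.2%, genes with both at 90.8% and 37.6%.

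Genes of known pathways were inhibitor-only at a share near that of all protein-coding genes. Of 545 genes in 14 lists, 520 were in the 4 tables, of which 4 (0.769%) were inhibitor-only, against 0.534% of protein-coding genes. Including the 19 genes with both, 23 (4.42%) had an inhibitor interval, against 3.84% of protein-coding genes and 3.83% of all genes. The 4 genes were JAK2, LIFR, CCNE1 and CD44. They are a kinase that phosphorylates STAT5, a cytokine receptor, a cell cycle cyclin and a hyaluronan receptor.

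JAK2 had an inhibitor interval at chr9:4983698-4983859, 1336 to 1175 bp upstream of its start, with scores of 3 in library 6, 2 in library 12 and 4 in library 14. The nearest control BCL6 interval of any gene was 16539 bp away. Control STAT5 was listed at 4 places around the JAK2 start, each with a score in 1 library only (2, 2, 3 and 3), and activator STAT5 at none. The JAK2 start thus had control STAT5 and inhibitor BCL6 in the lists, which does not show that STAT5 was absent in activator cells. LIFR, the receptor for leukemia inhibitory factor, had an inhibitor interval at chr5:38596464-38596491, 985 to 958 bp upstream, with scores of 3, 2 and 2. It had 2 control STAT5 intervals, both with a score of 2 in library 1 and 0 in library 7. Activator STAT5 at LIFR was listed at 2 places, with scores of 2 and 3 in libraries 3 and 9 at one and 2 and 2 at the other. None of these STAT5 intervals shared a base with the inhibitor interval, and the nearest control STAT5 interval was 92 bp from it.

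CCNE1, cyclin E1, which partners CDK2 at the start of DNA replication, had scores of 3, 2 and 4 at chr19:30301243-30301298, 1659 to 1604 bp upstream. One control STAT5 interval there scored 2 and 0, and one activator STAT5 interval scored 3 and 2. CD44, a surface receptor used as a marker of colorectal progenitor cells and a BCL6 target in the lists, had scores of 2, 3 and 2 at chr11:35161352-35161490, 934 to 1072 bp downstream of its start, with one control STAT5 interval (0 and 2). At all 4 genes the inhibitor scores lay between 2 and 4, so none rose far above the lowest listed score.

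At the background share of 0.534%, lists of this size hold few or no inhibitor-only genes, so a count of 0 is no result about a list. Among 43 listed genes of JAK-STAT kinases and cytokine receptors, 2 were inhibitor-only and 3 had both (JAK1, IL10RB, PTPN1). The 52 cell cycle genes held 1 inhibitor-only gene and 3 with both (CDKN2C, E2F5, TFDP2), and the 30 BCL6 targets held 1 inhibitor-only gene, CD44. No inhibitor-only gene was among 27 BCL6 corepressor and Polycomb genes, 20 STAT5 targets, 47 RAC1 and PAK genes, 110 DNA damage genes, 39 apoptosis genes, 70 WNT genes or 46 RAS, MAPK and PI3K genes. The list sizes are those of the lists, not of the genes in the tables, and the lists are not complete: inhibitor-only genes outside them include PHC3, a Polycomb gene, and POLQ and RFWD3, which act in DNA repair. The lists of B cell (12), fibroblast and endothelial (14), colon epithelium (27) and neuronal or very long genes (30) held none either. A ChIP score is not an expression level, so these markers do not check the cell type.

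JAK1 and PTPN1 are given as examples of genes with both. They are not the highest-ranked protein-coding genes with both, which P4HA1 led with 4, 6 and 10. JAK1 scored 5, 2 and 2 downstream of its start, 3613 bp from a control interval of 3 and 0 upstream. At PTPN1, a phosphatase that acts on JAK2 and STAT5, the inhibitor interval directly adjoined a control interval of 3 and 0. Its inhibitor scores were 2, 2 and 6, and 1 of 5 control intervals had a score in both libraries (2 and 4). The inhibitor scores of JAK1 and PTPN1 overlapped the range of JAK2, LIFR, CCNE1 and CD44.

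The protein-coding inhibitor-only genes were ranked by the lowest of their 3 scores, then by their sum and then by the smaller distance to the gene start, which gave the 20 named here. Distance decided the last places, since other genes tied with them on the lowest score and the sum, such as HELLS (2, 2 and 6), which has the scores of HOXC5. NCOA5, a nuclear receptor coactivator, led with scores of 4, 4 and 5 at chr20:44719580-44719718, 1127 to 989 bp upstream. PPM1G, a protein phosphatase, scored 3 in all 3 libraries at chr2:27631921-27632058, 496 to 633 bp downstream. These were the only 2 of the 20 with a score of at least 3 in every library. The other 18 had a score of 2 in at least 1 library, so their rank rests on the sum (9 to 13 over the 20 genes) and, among ties, on distance.

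The other genes differ in what they do. SCD, the desaturase that makes monounsaturated fatty acids, scored 5, 5 and 2 at chr10:102104018-102104121, 2860 to 2757 bp upstream. TEF, a PAR bZIP clock factor, scored 2, 3 and 6 at chr22:41763708-41763771, 370 to 433 bp downstream. HOXC5, a homeobox factor, scored 2, 2 and 6 at chr12:54424477-54424599. SGOL2, which protects sister chromatid cohesion at centromeres (now SGO2), scored 3, 2 and 7 at chr2:201372277-201372498. Library 14 was highest at TEF, HOXC5 and SGOL2, and lowest at SCD.

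KCNQ1, a potassium channel subunit that is also expressed in epithelia, scored 4, 4 and 2 at chr11:2467153-2467281, 931 to 1059 bp downstream. TUBG2, a gamma-tubulin, scored 4, 4 and 2 at chr17:40811546-40811702. RARRES3, a retinoid-induced phospholipase now called PLAAT4, scored 3, 2 and 6 at chr11:63303337-63303397, inside a control STAT5 interval that scored 3 and 4. Library 12 equalled library 6 at KCNQ1 and TUBG2 but was lowest at RARRES3. MRPL9, a mitochondrial ribosomal protein gene, scored 3, 2 and 6 at chr1:151738703-151738964 and touched a control STAT5 interval of 0 and 4. KRT72, a hair follicle keratin, scored 5, 2 and 4 at chr12:52997364-52997516 and touched one of 2 and 0. TAX1BP3, a PDZ protein, scored 4, 2 and 7 at chr17:3572580-3572858 and shared bases with an activator STAT5 interval of 2 and 2. It was the only one of the 20 to do so.

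The remaining 8 were LOXHD1 and GDPD4 (4, 5, 2 and 2, 9, 2), PODN (2, 6, 5), HEATR3 (2, 2, 8), ST6GALNAC5 (4, 2, 6), GOLM1 (3, 6, 2), TRUB1 (3, 2, 5) and SPERT (2, 3, 5, now CBY2). Of the 20 genes, 17 had a control STAT5 interval and 10 an activator STAT5 interval, 7 had both and 3 had activator STAT5 only. The inhibitor interval lay upstream in 14 and downstream in 6. TRUB1, which places pseudouridine in transfer RNA, had the highest activator STAT5 score of these genes, with 8 and 2.

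**Figure D3:**
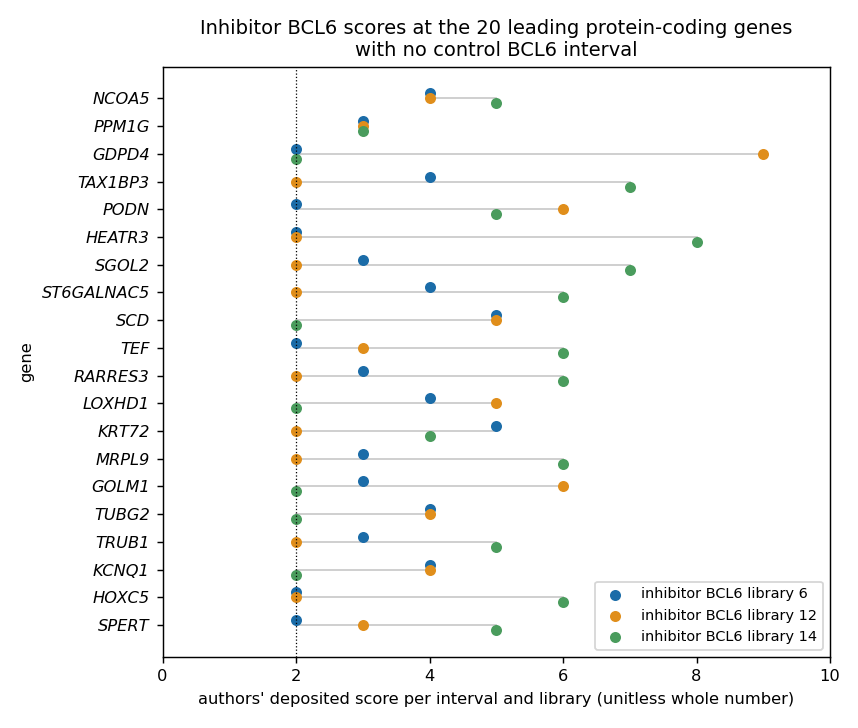
Deposited inhibitor BCL6 score (x axis) in libraries 6, 12 and 14 for the 20 leading protein-coding genes (y axis) with no control BCL6 interval; the dotted line marks 2, the lowest score, and grey lines join the 3 libraries. NCOA5 and PPM1G are the genes with every point at 3 or above, and GDPD4 in library 12 has the highest score, 9.

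The intervals of inhibitor-only genes were near those of genes with both in median width and in scores, but not in every measure. The 220 genes had 223 distinct intervals, against 1446 for genes with both, and 17 of the 223 (7.62%) were also listed for a neighbouring gene that had control BCL6. Median widths were 92 and 84 bp, and the median score was 2 in every library for both classes. Widths under 50 bp were seen at 24.7% of inhibitor-only intervals, against 31.3% for genes with both. A score of at least 3 in all 3 libraries was seen at 14 inhibitor-only intervals (6.28%, interval 3.47 to 10.3), against 6.15% for genes with both. Of the 144 intervals with a single highest library, 35 had it in library 6, 33 in library 12 and 76 in library 14. Library 14 thus led more often, and it also had the highest summed score, 783, against 618 in library 6 and 672 in library 12. The 1 interval of ENSG00000228637 gave 8, 66 and 83 of these sums in libraries 6, 12 and 14. Genes with both had the same order, with sums of 3817, 3975 and 4829, so it is not particular to the class.

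Inhibitor-only intervals overlapped STAT5 intervals in a minority of cases. Of the 223, 45 (20.2%, interval 15.1 to 26.1) shared bases with a control STAT5 interval and 10 (4.48%, interval 2.17 to 8.09) with an activator STAT5 interval, against 24.4% and 4.56% for genes with both. The nearest control BCL6 interval of any gene was a median of 16967 bp away, in a list that covers only the windows around gene starts. For genes with both it was 350 bp. Within 1000 bp lay 11 of the 223 intervals, against 1139 of the 1446 of genes with both. A directly adjoining control BCL6 interval was found for 1 inhibitor-only interval, against 236. The class rule itself makes these distances large, since it allows no control interval in the gene's own window. At FKBP14, which folds collagen in the endoplasmic reticulum, the interval directly adjoined a control BCL6 interval listed for another gene, with inhibitor scores of 2, 2 and 5.

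Of the 10 intervals on activator STAT5, those of 4 genes are given here, chosen after their values were seen for the known roles of the genes. HELLS, a chromatin remodeller needed for DNA methylation, scored 2, 2 and 6 at chr10:96258314-96258515, on an activator STAT5 interval of 2 and 2. PHC3, a Polycomb subunit, scored 2, 2 and 5 at chr3:169899972-169900231, on one of 2 and 3. UBE2C, the ubiquitin-conjugating enzyme of the anaphase-promoting complex, scored 2 in all 3 libraries, on one of 2 and 5. PAG1, a membrane adaptor that recruits CSK, scored 3, 2 and 3, on one of 2 and 3. All 4 also had a control STAT5 interval elsewhere in the window.

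Inhibitor-only intervals spread over the whole window. Of 239 pairs of a gene and an interval, 180 (75.3%, interval 69.3 to 80.6) lay upstream, 56 (23.4%) downstream and 3 (1.26%) over the start, against 76.0%, 21.4% and 2.63% for genes with both. The fullest 500 bp bin held 42 pairs, from 1000 to 500 bp upstream (17.6%, against 12.3% for genes with both), while the bins on either side of the start held 23 (9.62%, against 12%) upstream and 29 (12.1%, against 9.96%) downstream. That bin was picked because it was the fullest, and no bin was tested. The 239 pairs rest on 223 distinct intervals.

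**Figure D4:**
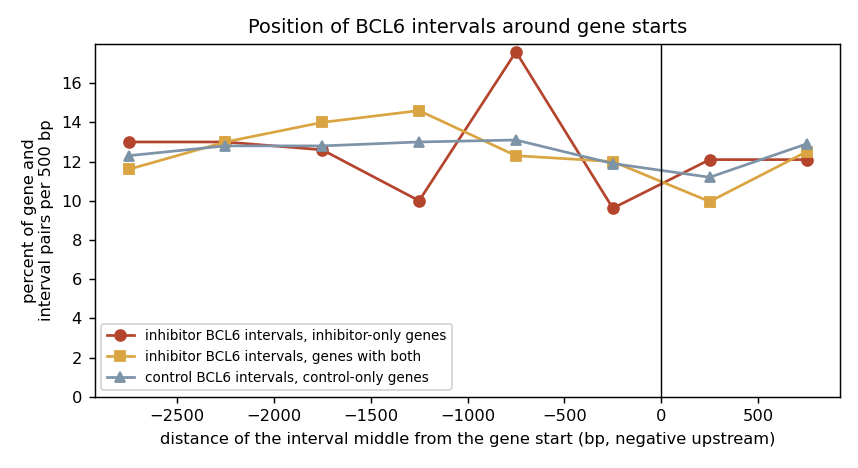
Percent of gene and interval pairs per 500 bp bin (y axis) against the distance of the interval's middle from the gene start (x axis, bp, negative upstream), for inhibitor BCL6 intervals of inhibitor-only genes, those of genes with both, and control BCL6 intervals of control-only genes. The fullest bin of inhibitor-only pairs, from 1000 to 500 bp upstream, holds 17.6%, against 12.3% for genes with both. Bins were not tested.

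By gene type, 92 inhibitor-only genes were protein-coding (41.8%), 94 had no symbol in the table (42.7%), 23 were pseudogenes (10.5%), 5 long non-coding RNAs and 3 microRNAs by symbol. Across all genes 39.0% were protein-coding, 40.4% had no symbol and 13% were pseudogenes. The highest scores were outside the protein-coding genes. ENSG00000238159 had 30, 23 and 17 at chr1:142538149-142538382, and ENSG00000228637 had 8, 66 and 83 at an 11 bp interval, chr10:42398438-42398448. Both places lie beside centromeric regions, which are rich in repeats. The pseudogenes RN7SL98P and RPLP0P6, whose intervals lay upstream of their starts, scored 4, 3 and 5 and 2, 9 and 2. Whether repeats play a part in these scores was not tested.

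Gene families were read against the 0.498% of all genes that were inhibitor-only, and their shares lay between 0 and 0.971%, on both sides of that background. None of 540 olfactory receptor genes in the lists was inhibitor-only, although 21 had both, and none of 69 cadherin genes or 73 histone genes was. The class held 3 of 536 zinc finger genes, 4 of 413 solute carriers, 3 of 886 ribosomal protein genes and pseudogenes, and 1 of 103 interleukins and chemokines, the chemokine CXCL16 (2, 2 and 3).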

How the data were processed

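DNA bound by BCL6 or STAT5 in DLD-1 cells was measured by ChIP-seq in 14 libraries, of which 9 had columns that were used. Per the submitters' processing notes, CASAVA 1.8.2, Bowtie 0.12.7 and GRCh37 were used; what each did, the peak caller and its cutoff were not given in the sources used here. In 4 lists, the authors deposited intervals around gene starts with a whole number per library, treated here as a score of unnamed quantity, with a distance and an Ensembl gene per interval. Depth is unknown, so intervals cover counting of genes only.

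Genes were classed by identifier with pandas 2.3.3 on Python 3.11.15, and exact (Clopper-Pearson) 95% intervals came from scipy 1.17.1. The classing was tested on simulated lists. No test of scores was run between conditions, because the lists were made by different entry rules. The 20 named protein-coding genes were ranked by lowest score, then sum, then distance to the start; list members were named in full. The members and gene lists were chosen with earlier results of these data known. Alternatives changed score, width, distance, gene type and libraries. Symbols, types and sequences came from RefSeq (GRCh38.p14); all 126 symbols of the class matched. Coordinates are those of the deposited lists (GRCh37).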

Additional observations from a re-analysis of the deposited data

How the results depend on the processing

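No paired analysis was possible because the control and inhibitor groups share no replicate numbers in the labels and the class comes from no test. The number of inhibitor-only genes, 220, became 13 with scores of at least 3 in every inhibitor library, 1360 with control intervals scored in both libraries, 126 by gene symbol, 92 among protein-coding genes and 515 where no control peak of any gene lay within 1000 bp. Leaving out 1 library gave 25 to 608 genes, the lowest without inhibitor library 14 and the highest without control library 8. Wherever an inhibitor library was left out, scores of at least 3 were also required in the remaining ones, so these values change 2 choices at once. The share without control BCL6, 13%, became 80.3% with both control libraries required, 33.7% for intervals within 1000 bp of the start, 30.4% with no control peak within 1000 bp, and 11.2% to 35.9% with 1 library left out. With both control libraries required, the control list held only 6467 of the 44178 genes. The share with control STAT5, 83.6%, became 76.9%, 89.4%, 70.5% and 88.5% in the order score of at least 3, both control libraries, within 1000 bp of the start, and no control peak within 1000 bp. It was 13.6% with a score in both STAT5 libraries, an alternative chosen after seeing the data, and 82.5% to 87.7% with 1 library left out. The share with activator STAT5, 38.2%, became 15.4% with scores of at least 3, 22.9% within 1000 bp of the start, and 31.4% to 36.2% with 1 library left out. Leaving out the 3 highest intervals, also chosen after seeing the data, left 218 genes. Of the 24 named genes, 2 remained at scores of at least 3, 21 at widths of at least 50 bp, 12 within 1000 bp of the start, and 5, 11 and 7 without inhibitor library 6, 12 and 14. The 275 genes of the class within 1000 bp of the start shared 114 with the 220. Apart from the larger or smaller sets these rules make, the cause was not tested. Depth is unknown, so a gene without a control interval may lie below detection there.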

Other observations

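Further inhibitor-only genes, chosen after their values were seen, serve the mitochondrion and genome maintenance. IBA57, which matures mitochondrial iron-sulfur proteins, scored 4, 2 and 2 in libraries 6, 12 and 14, on a control STAT5 interval with 4 in each library. SIRT4, a mitochondrial sirtuin, scored 2, 3 and 3 at 154 to 167 bp downstream of its start. PMPCA, a subunit of the mitochondrial processing peptidase, scored 2, 2 and 3. HADHB, of the fatty acid oxidation trifunctional protein, scored 2, 2 and 2. POLQ, the polymerase of theta-mediated end joining, scored 2, 4 and 3 at chr3:121267081-121267340, on a control STAT5 interval of 3 and 0. RFWD3, a ubiquitin ligase of crosslink repair, scored 5, 2 and 2. These genes were picked for their roles and are no sign of enrichment.

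The 21 inhibitor-only genes in no other list were 9.55% of the class, near the 10.2% of all genes without a STAT5 interval. Of the 21, 7 were protein-coding: CD200R1, SLC51A, MYO7A, PPM1E, DSG1, ZNF615 and KRTAP6-1. SLC51A codes for a subunit of the basolateral bile acid transporter of the intestine, and its interval scored 2, 2 and 3. CD200R1, an inhibitory receptor of myeloid cells, had its interval 747 to 563 bp upstream of the start, and its nearest control STAT5 interval was 13469 bp away. A further 12 of the 21 had no symbol.

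Scores of neighbouring inhibitor intervals were compared. Among 16 pairs within 1000 bp that held at least 1 inhibitor-only interval, all 16 had at least 1 library with equal scores and 5 had equal scores in all 3 libraries. A score of 2 was seen at 65.5%, 68.6% and 53.8% of inhibitor-only intervals in libraries 6, 12 and 14, and in all 3 at 26.5%. Equal scores are therefore frequent between distant intervals too, and no baseline was computed. The 16 pairs held 30 inhibitor-only intervals. Whether such neighbours are parts of the same peak was not tested, so the 223 distinct intervals need not be separate sites.

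By chromosome, 20 of 122 inhibitor genes on chromosome 11 were inhibitor-only (16.4%), where 8.65% of all genes lacked control BCL6. On chromosome 14 the share was 2 of 52 (3.85%, against 15.0% of all genes), and on chromosome X it was 3 of 4 genes, against 39.8%. These chromosomes were picked after their values were seen. Chromosomes were not tested against one another, and genes that share an interval, such as MIR192 and MIR194-2 on chromosome 11, are counted separately.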
